A study of Homo sapiens with 5 samples.

Results

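The paraspeckle lncRNA genes NEAT1 and MALAT1 and the protein genes SFPQ, NONO, PSPC1 and RBM14 were examined for HSF1 and MYC binding in OVCAR8 cells. They were taken by name, as 6 of the 38899 protein-coding and lncRNA genes that GENCODE 44 places on chromosomes 1 to 22, X and Y of GRCh38. All peaks that touched the window from 5 kb upstream of a gene record to its end were assigned to that gene. OVCAR8 is an established line of high-grade serous ovarian carcinoma, in which the study describes amplification of both HSF1 and MYC, and it was grown without treatment. The study asked where the transcription factors bind and which sites they share. Cells were fixed with 1% formaldehyde for 1 minute, and 500000 cells were incubated with each antibody for CUT&RUN, in which an antibody directs a nuclease to cut and release the DNA around its target protein. There were 2 HSF1 libraries, 2 MYC libraries and 1 IgG library, and 1 IgG library was the background for all 4 peak lists. The headers of the lists name that background as IgG replicate 2, whereas the labels give a single IgG sample, so it was taken to be that sample. The labels do not say whether replicates came from separate cultures. The lists hold binding sites and no expression, so the identity of the line could not be checked against marker genes.

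Paraspeckles are nuclear bodies built around the long isoform of NEAT1, which acts as an RNA scaffold for proteins that bind it. SFPQ, NONO and PSPC1 are related RNA- and DNA-binding proteins that pair with each other on this scaffold, and RBM14 is a further protein needed for the bodies to form. MALAT1, the chromosomal neighbour of NEAT1, is a nuclear lncRNA best known from the adjacent nuclear speckles. HSF1 is the heat shock transcription factor and binds inverted repeats of GAA, called heat shock elements. MYC binds E-boxes, of which CACGTG is the canonical form, as a dimer with MAX.

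The libraries held between 8265647 and 10084407 fragments after duplicate filtering, against 9306942 for IgG. On the chromosomes used, the HSF1 lists held 6421 and 4459 peaks at a p-value threshold of 1e-04, and the MYC lists held 25623 and 13278 peaks at 1e-10. The height of a peak is given below as its pileup, the number of fragments that cover its summit, and was not scaled for depth. The median pileup of all peaks was 11 and 10 in the HSF1 lists and 25 in each MYC list. Fold enrichment is the pileup plus 1 over the local background plus 1. Because depth and thresholds differ, pileups were read within a list, and a gene with no peak is one where none was called at that depth and threshold. For each value the list of replicate 1 is given before that of replicate 2.

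HSF1 peaks recurred at the lncRNA genes and at none of the protein genes, whereas MYC peaks were found at every member but PSPC1. In replicate 1, 4 of the 6 genes (NEAT1, MALAT1, SFPQ and NONO) held an HSF1 peak, against 12.3% of all genes. In replicate 2, 2 genes (NEAT1 and MALAT1) held one, against 9.13% of all genes. The 2 genes with an HSF1 peak in both lists compare with 5.72% of all genes, and with 3.5% of lncRNA genes and 7.81% of protein-coding genes. MYC peaks lay at 5 of the 6 genes in replicate 1, against 46.9% of all genes, and at 5 in replicate 2, against 33.4%. These were the same 5 genes, against 32.7% of all genes with a MYC peak in both lists, 19.2% of lncRNA genes and 45.4% of protein-coding genes. With 6 genes chosen by name, these shares describe the members and were not tested.

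HSF1 and MYC peaks of the same replicate number overlapped by at least 1 bp at NEAT1 and at MALAT1 in both replicates, so at 2 of the 6 genes, against 3.04% of all genes. The study had already named NEAT1 as a target that HSF1 and MYC share. No overlap was found at SFPQ, NONO, PSPC1 or RBM14 in either replicate. Within 1 kb of the start of the gene record, 2 members held an HSF1 peak in both lists, again NEAT1 and MALAT1, against 1.92% of all genes. A MYC peak lay within 1 kb of the start in both lists at 4 members, MALAT1, SFPQ, NONO and RBM14, against 24.4% of all genes. At NEAT1 such a MYC peak was present in replicate 1 alone. By count, each of the 4 lists held 10 peaks in the 6 windows, and 7 of the 10 in each list overlapped a peak of the other replicate. In HSF1 replicate 1 these were all 7 peaks at NEAT1 and MALAT1 and none of the 3 at protein genes. The share over all peaks of the lists is not given here.

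NEAT1, the scaffold of the paraspeckle, is on the forward strand at chr11:65422774-65445540 (ENSG00000245532.11). Its window held 3 and 4 HSF1 peaks and 3 and 2 MYC peaks, and every summit was upstream of the gene. No summit of any list lay in the gene body of 22767 bp. The peaks fell into 3 main places, at the start site, about 1.4 kb upstream and about 3.8 kb upstream, and the factors differed in which of these was highest.

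At the start site of NEAT1, HSF1 gave its highest peak of the window in both replicates. The summits were at -260 and -145 bp from the start of the gene record, with pileups of 34 and 75 and fold enrichments of 5.98 and 17.8. The library with the lower pileup was the deeper one, with 10042269 fragments against 8721440. In replicate 2 the pileup of 75 ranked 80 among the 4459 peaks of its list, and 75 genes of 38899, or 0.193%, had a pileup at least as high in their window. In replicate 1 the corresponding share was 0.614%. By fold the replicate 1 peak stood lower, since its local background was 4.86 and 69.9% of peaks in its list had a lower fold. For the replicate 2 peak that share was 95.9%. The 61 bases around the replicate 2 summit (chr11:65422599-65422659, forward strand, GRCh38) are shown because this was the highest HSF1 peak at either lncRNA gene, with the summit base in capitals.
NEAT1 start-site HSF1 summit: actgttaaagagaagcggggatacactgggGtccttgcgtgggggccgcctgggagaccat
A heat shock element of 2 units, GAANNTTC or TTCNNGAA, was present farther upstream in the peaks of both replicates, at -156 and -271 bp from their summits. It is shown with 8 bases on each side and the element in capitals (chr11:65422346-65422369).
NEAT1 start-site element: gccgcctgGAATTTTCcagatgtc

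MYC at the NEAT1 start site was called in replicate 1 alone. In MYC replicate 1 a peak of pileup 20 had its summit at -614 bp and shared 90 bp with the flank of the HSF1 peak of that replicate, with the summits 354 bp apart. In MYC replicate 2 no peak overlapped the HSF1 peak there. The strongest HSF1 site of NEAT1 was therefore one at which overlap with MYC was seen in replicate 1 alone and at the flank.

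The highest MYC peak of NEAT1 was instead the one about 3.8 kb upstream, and there the factors coincided. Its MYC summits were at -3756 and -3740 bp, with pileups of 52 and 50 and fold enrichments of 16.5 and 13.8. HSF1 was called at the same place in both replicates, with summits at -3756 and -3794 bp and pileups of 12 and 26. In replicate 1 the HSF1 and MYC summits were 0 bp apart and the peaks shared 280 bp. In replicate 2 the summits were 54 bp apart and the peaks shared 589 bp. The HSF1 peak of replicate 1 was near the lower limit of its list in fold, at 3.52, and 8.80% of peaks in that list had a lower one.

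The peaks of all 4 lists at this upstream site contained the same canonical E-box, at chr11:65418838-65418843. It lay to one side of the summits, at -177 and -139 bp from the HSF1 summits and at -177 and -193 bp from the MYC summits. It was the only CACGTG in any member peak and is shown in capitals with 8 bases on each side (chr11:65418830-65418851). The 61 bases around the summit shared by HSF1 and MYC in replicate 1 (chr11:65418988-65419048) follow, with the summit base in capitals.
NEAT1 upstream E-box: tgcagagtCACGTGccagggca
NEAT1 upstream shared summit: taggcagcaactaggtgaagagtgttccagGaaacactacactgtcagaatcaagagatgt

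The third site of NEAT1, about 1.4 kb upstream, was also called in all 4 lists. HSF1 summits at -1369 and -1352 bp had pileups of 15 and 20, and MYC summits at -1380 and -1161 bp had pileups of 20 and 23. HSF1 and MYC peaks shared 359 bp in replicate 1 and 177 bp in replicate 2. Both HSF1 peaks and the MYC peak of replicate 1 overlapped the start of an unnamed lncRNA gene on the same strand, ENSG00000290057, whereas the MYC peak of replicate 2 lay wholly past that start. The HSF1 summits were at -43 and -26 bp from it. A heat shock element of 2 units lay in both HSF1 peaks (chr11:65421269-65421292, element in capitals).
NEAT1 middle element: cactgccgGAATCTTCccctggca
A further HSF1 peak at -1784 bp, with a pileup of 6, was called in replicate 2 alone.

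MALAT1 lies downstream of NEAT1 on the same strand, at chr11:65497640-65508073 (ENSG00000251562.11), and its canonical transcript is 1 exon over this whole length. Its window held 4 and 6 HSF1 peaks and 3 and 3 MYC peaks. In HSF1 replicate 2 only 14 genes of 38899, or 0.036%, had as many peaks. Unlike NEAT1, MALAT1 had its highest HSF1 peak at the far end of the gene.

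At the 3′ end of MALAT1, HSF1 summits were at +9829 and +9865 bp, with pileups of 57 and 59 and fold enrichments of 13.7 and 15.6. The replicates differed by 2 fragments in pileup and by 36 bp in summit position. The peaks were long, at 1253 and 1657 bp, against medians of 273 and 289 bp for their lists. They overlapped the start of TALAM1, the antisense lncRNA of this locus, with summits at -37 and -73 bp from that start. CUT&RUN peaks carry no strand, so they were not assigned to one of the overlapping genes.

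Both 3′-end HSF1 peaks held 3 heat shock elements of 2 units, counted over whole peaks, which are long here. For elements in whole peaks, at this and the other sites, no share over all peaks is given. The elements are printed because no other member peak held more than 1, and they lie at chr11:65507376-65507399, chr11:65507596-65507619 and chr11:65507845-65507868 with the element in capitals.
MALAT1 element 1: cgtctgaaGAATCTTCcagcctgg
MALAT1 element 2: aatgtctaGAATGTTCtgatagat
MALAT1 element 3: ccaaagcaGAAGGTTCtgtggaag
The first was at -81 bp from the summit of replicate 1 and at -117 bp from that of replicate 2, and the second was at 139 and 103 bp. None of the 3 had the third unit in register that makes up the longer element.

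MYC differed between its replicates at this end of MALAT1. In MYC replicate 1 a peak with its summit at +9425 bp and a pileup of 29 lay wholly within the HSF1 peak. In MYC replicate 2 no peak was called inside the gene end, and the overlap of 367 bp with the HSF1 peak came from a MYC peak that began 140 bp past the end of the gene. A MYC peak just past the gene end was present in both lists, with summits at 10658 and 10642 bp from the MALAT1 start and pileups of 37 and 23.

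At the MALAT1 start site both factors were called in both replicates. MYC summits were at +47 and +278 bp with pileups of 51 and 32, and HSF1 summits were at -98 and -69 bp with pileups of 19 and 22. The HSF1 peaks lay wholly within the MYC peaks, sharing 344 and 691 bp. By pileup, the highest MYC peak of MALAT1 was thus at its start site and its highest HSF1 peak at its 3′ end. In MYC replicate 2 the start-site pileup of 32 was close to those of the other window peaks, 30 and 28. The start-site fold enrichment there, 7.47, was below theirs, at 9.79 and 9.13. In MYC replicate 1 the start-site fold of 15.3 was above the others, at 10.1 and 13.8. The 61 bases around the MYC summit of replicate 1 (chr11:65497657-65497717) are given, with the summit base in capitals.
MALAT1 start-site MYC summit: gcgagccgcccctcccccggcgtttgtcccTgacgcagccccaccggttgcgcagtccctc

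The other MALAT1 peaks were lower or not shared. About 3.5 kb upstream, HSF1 was called without MYC in both replicates, with summits at -3590 and -3520 bp and pileups of 17 and 29. These peaks held another heat shock element of 2 units (chr11:65494157-65494180, element in capitals), at 119 and 49 bp from their summits.
MALAT1 upstream element: accccgccTTCTCGAAggtacagc
About 4.7 kb upstream, MYC was called in both replicates, with pileups of 27 and 30, and overlapped HSF1 in replicate 2 alone. That HSF1 peak had a pileup of 13 and a summit at -5020 bp, just outside the window. The MYC summits lay in the reverse-strand lncRNA gene ENSG00000290061, 114 and 160 bp past its start. Inside the gene, HSF1 summits at +1168 and +1111 bp had pileups of 12 and 19, and MYC was called there in replicate 2 alone, at +1123 bp with a pileup of 28. These HSF1 summits were at -191 and -134 bp from the start of ENSG00000270117, a reverse-strand lncRNA gene. An HSF1 peak at -788 bp from the MALAT1 start, with a pileup of 9, was called in replicate 2 alone.

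**Figure D1:**
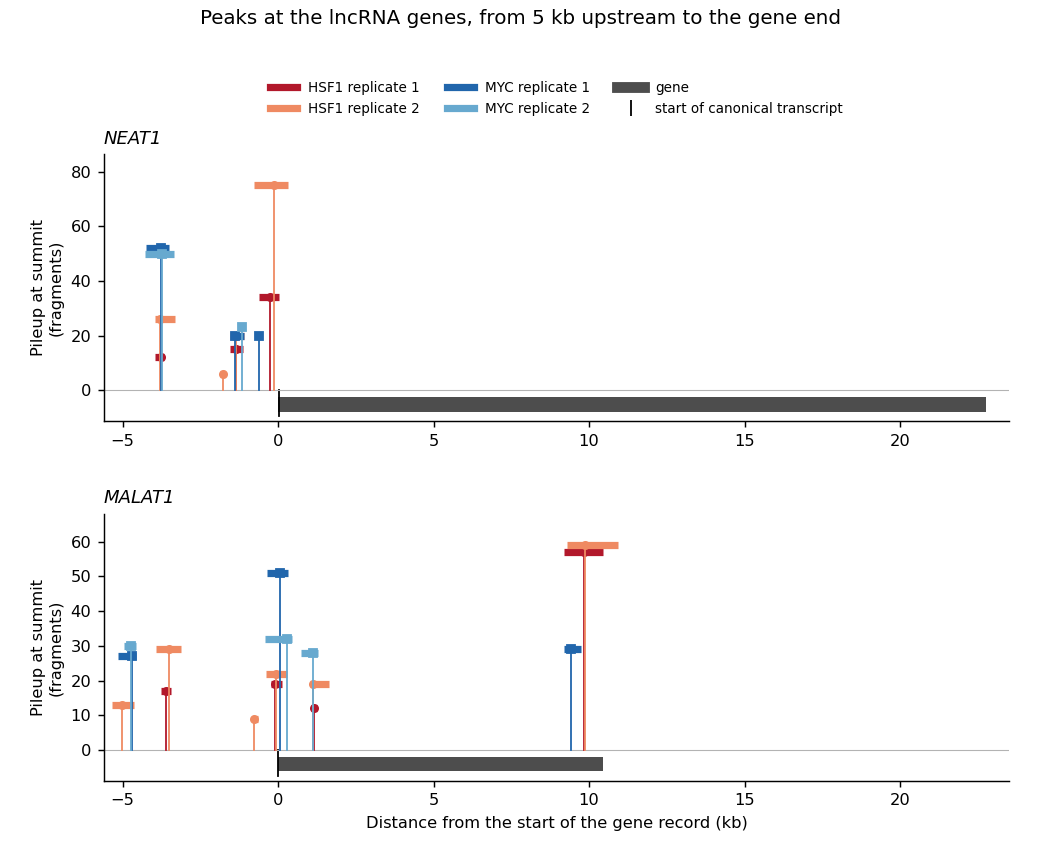
Peaks at NEAT1 and MALAT1 in the HSF1 (red, orange) and MYC (dark and light blue) lists. The x axis is the distance from the start of the gene record in kb, the y axis is the pileup at the summit in fragments, horizontal bars are peak spans, markers are summits, and the grey block is the gene. At NEAT1 the HSF1 peaks of pileup 34 and 75 are at the start site and the MYC peaks of 52 and 50 are about 3.8 kb upstream, whereas at MALAT1 the HSF1 peaks of 57 and 59 are near the gene end.

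Among the protein members, RBM14 had the highest MYC peaks. RBM14, at chr11:66616626-66629934 on the forward strand (ENSG00000239306.5), held 1 MYC peak in each list, with summits at +69 and +116 bp, in its first exon. The pileups were 54 and 49 and the fold enrichments 23.6 and 19.0. The replicates differed by 5 fragments and 47 bp. No HSF1 peak was called in its window of 18309 bp, and the nearest lay 78543 and 256891 bp outside it. The readthrough gene RBM14-RBM4 starts at the same base, so the peak belongs to either gene. Counted over whole peaks, a heat shock element of 2 units was in MYC peaks at 3 members, so it was not particular to RBM14. It was in a MALAT1 peak of MYC replicate 2 and in the SFPQ peak of MYC replicate 1, there within 100 bp of the summit. Both RBM14 peaks, of 1271 and 1267 bp, held one (chr11:66616254-66616277, element in capitals), at -429 and -476 bp from the summits.
RBM14 upstream element: gacagggcTTCCAGAAtgggagga

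SFPQ, the splicing factor that pairs with NONO, is on the reverse strand at chr1:35176378-35193446 (ENSG00000116560.12). Its MYC peaks were not the same in both replicates. In replicate 1 a single peak at chr1:35193175-35193396 had a pileup of 22. In replicate 2 a peak of pileup 23 lay at chr1:35192892-35193198, so that the peaks met at their edges with summits 174 bp apart. Replicate 2 held a second and higher peak in exon 1, 827 bp past the start of the canonical transcript, with a pileup of 34 and a fold enrichment of 20.4. HSF1 was called in replicate 1 alone, 505 bp past that start, with a pileup of 6, and 2.79% of peaks in that list had a lower one.

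NONO, the partner of SFPQ, is on the forward strand at chrX:71254814-71301522 (ENSG00000147140.17), and its record begins 28821 bp upstream of the start of its canonical transcript. MYC was called at the start of the record in both lists, with summits at -370 and -293 bp and pileups of 28 and 17. These peaks lay inside ZMYM3, a gene that runs in the opposite direction, and their summits were 702 and 625 bp past its start. Position alone does not assign them to NONO or to ZMYM3. At the canonical start, MYC was called in replicate 2 alone, with a pileup of 14 and a summit 199 bp past that start. In replicate 1 another MYC peak, at +624 bp of the record, had a pileup of 16.

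HSF1 at NONO was called in replicate 1 alone, and the peaks there differed from those of the other members. One peak had a pileup of 112 but a fold enrichment of 2.56, and the other had a pileup of 72 and a fold of 2.83. The local background, recovered from pileup and fold, was 43.2 and 24.8 fragments, whereas it lay between 0.601 and 4.86 for the other 8 HSF1 peaks of that list at the members. The median over all peaks of that list was 1.08. Only 69 and 90 of its 6421 peaks had a background as high. The first peak, of 182 bp, lay wholly within exon 5 of NONO, which is 302 bp long. The second, of 428 bp, covered 61 bases of exon 6, 177 of exon 7 and the intron between them. The cause of this background was not tested, and the pileup of NONO in that list was not read as a level of HSF1.

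PSPC1, the third protein of the SFPQ and NONO family, is on the reverse strand at chr13:19674752-19783019 (ENSG00000121390.19). No peak of the 4 lists was called in its window of 113268 bp. The nearest MYC peaks were 41259 and 985652 bp outside the window, and the nearest HSF1 peaks were 1155239 and 1155580 bp outside it. Of all genes, 51.1% had no peak in any list, and of protein-coding genes 34.7%.

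**Figure D2:**
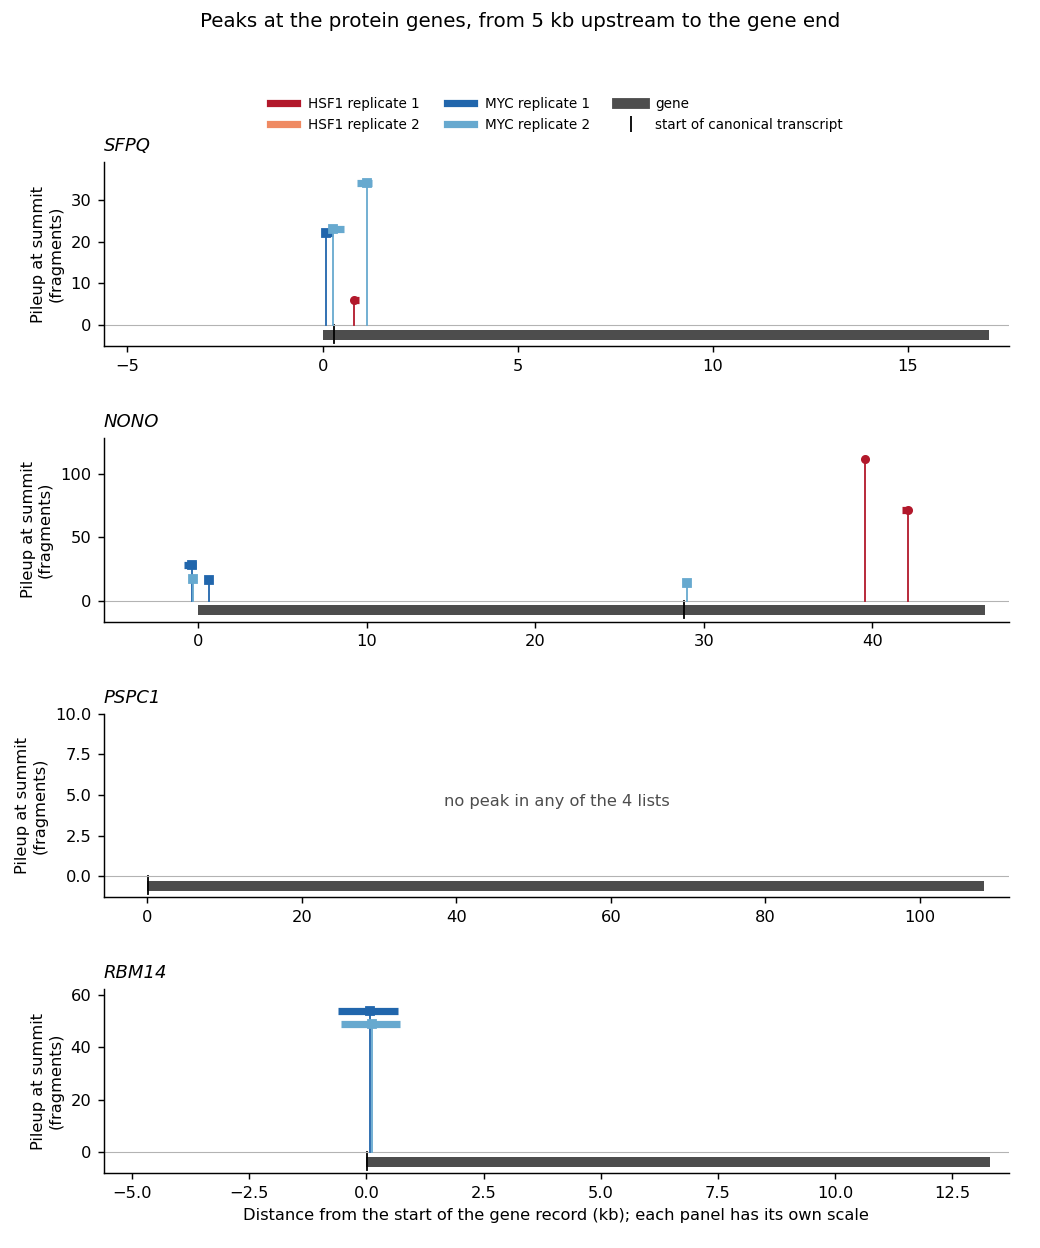
Peaks at the 4 protein genes in the HSF1 and MYC lists. The x axis is the distance from the start of the gene record in kb, the y axis the pileup at the summit in fragments, bars are peak spans, markers are summits, the grey block is the gene and the black tick the start of its canonical transcript. RBM14 has 1 MYC peak per list at its start, NONO has HSF1 peaks of pileup 112 and 72 far inside the gene in replicate 1 alone, and PSPC1 has none.

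**Figure D3:**
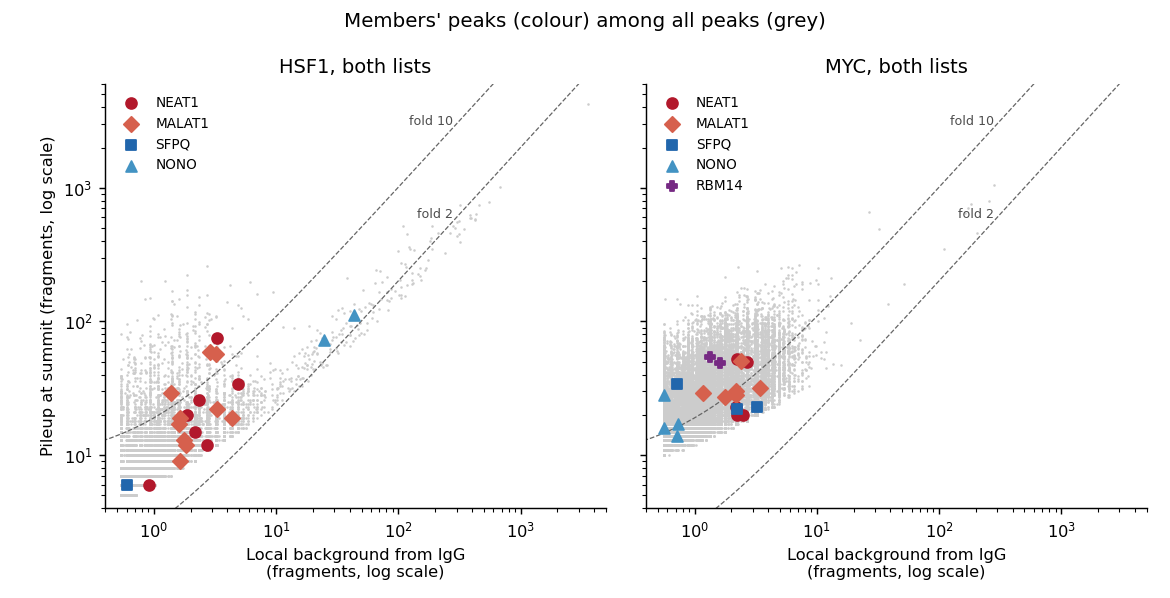
Pileup at the summit against the local background recovered from the IgG library, both in fragments on log scales, for all peaks (grey) and the peaks of the members (colour) in the HSF1 lists and the MYC lists. Dashed lines mark fold enrichments of 2 and 10. The NONO peaks in the HSF1 panel have backgrounds of 43.2 and 24.8 and lie near the line for a fold of 2, apart from the peaks of the other members.

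Ordered by their highest pileup, the members did not keep the same order between replicates. For HSF1 the order in replicate 1, NONO aside, was MALAT1 at 57, NEAT1 at 34 and SFPQ at 6, whereas in replicate 2 NEAT1 at 75 was above MALAT1 at 59. The HSF1 levels of the lncRNA genes were thus not separated beyond the spread between replicates. For MYC the order in replicate 1 was RBM14 at 54, NEAT1 at 52, MALAT1 at 51, NONO at 28 and SFPQ at 22. In MYC replicate 2 it was NEAT1 at 50, RBM14 at 49, SFPQ at 34, MALAT1 at 32 and NONO at 17. NEAT1 and RBM14 changed places by 1 or 2 fragments, and both were above SFPQ and NONO in each list.

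Sequence near the summits was compared with all peaks of the same lists. A heat shock element of 3 units, GAANNTTCNNGAA or TTCNNGAANNTTC, was searched on both strands within 100 bp of each summit and was in none of the members' HSF1 peaks. It was in 6.51% and 5.97% of all HSF1 peaks. The form with 2 units, which the longer one contains, was in 1 of 10 member peaks in each HSF1 list, both at MALAT1, against 23.9% and 23.6% of all HSF1 peaks. These were different sites, with summits at +9829 bp in replicate 1 and -3520 bp in replicate 2. Neither site held the element within 100 bp of the summit in both lists. The canonical E-box CACGTG was within 100 bp of none of the members' MYC summits, against 6.74% and 6.82% of all MYC peaks. In the RefSeq promoter sequences (GRCh38.p14), which had an entry for 4 of the 6 members, MALAT1, NONO, PSPC1 and RBM14, neither heat shock form nor CACGTG was found. Among all 35116 such promoters, 0.490% held the 3-unit form, 13.5% the 2-unit form and 7.26% CACGTG.

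Other proteins reported in paraspeckles were counted as a list of 28 genes, all of them protein-coding. MYC peaks were in both lists at 26 of the 28 (92.9%), all but RBMX and CELF6, against 32.7% of all genes and 45.4% of protein-coding genes. Within 1 kb of the start, MYC was in both lists at 23 (82.1%), against 24.4% of all genes and 34.5% of protein-coding genes. HSF1 peaks were in both lists at 5 (17.9%), EWSR1, HNRNPA1, HNRNPF, HNRNPK and SRSF10, against 5.72% of all genes and 7.81% of protein-coding genes. At HNRNPA1 and SRSF10 the HSF1 peaks of the 2 lists did not overlap each other. By list, HSF1 was called at 5 of the 28 genes (17.9%) in replicate 1, against 12.3% of all genes and 16.5% of protein-coding genes. In replicate 2 it was called at 10 (35.7%), against 9.13% of all genes and 12.3% of protein-coding genes. HSF1 and MYC overlapped in both replicate numbers at 4 (14.3%), EWSR1, HNRNPA1, HNRNPF and HNRNPK, against 3.04% of all genes and 4.20% of protein-coding genes. These shares were not tested.

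EWSR1, an RNA-binding protein, had the highest HSF1 pileups of the 28, at 23 and 40, both below those of MALAT1 and of NEAT1 in the same lists. The heterogeneous nuclear ribonucleoprotein genes had the highest MYC pileups. HNRNPA1, a splicing regulator, had MYC pileups of 140 and 123 and HSF1 pileups of 15 and 14, all within 1 kb of its start. Its HSF1 summits were at -106 and 189 bp, in peaks that did not overlap each other. HNRNPA1 has processed copies elsewhere in the genome, so its read assignment is uncertain. HNRNPF had MYC pileups of 103 and 96 and HSF1 pileups of 11 and 15, and HNRNPK had MYC pileups of 92 and 104 and HSF1 pileups of 19 and 26. HNRNPR, at 99 and 62, and HNRNPH3, at 74 and 103, completed the 5 genes with the highest mean MYC pileup. These MYC values were above those of all 6 members in the same lists.

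**Figure D4:**
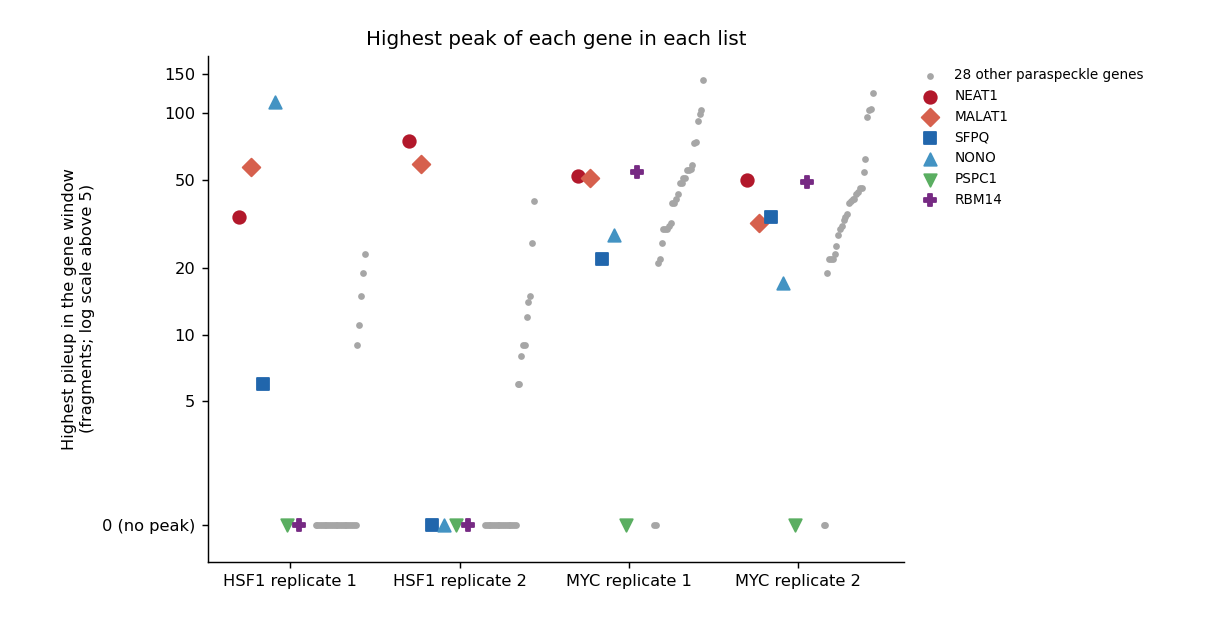
Highest pileup at a summit in the window of each member (coloured markers) and of the 28 other paraspeckle genes (grey points, sorted by value within a list), in each of the 4 lists. The y axis is in fragments, on a log scale above 5, with 0 for genes without a peak. NEAT1 and MALAT1 are above all of the 28 other paraspeckle genes in both HSF1 lists. In the MYC lists the members lie within the range of the 28 genes, which includes 0 for RBMX and CELF6. PSPC1 has no peak and is also at 0.

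Genes with pileups most like those of NEAT1 and MALAT1 were found by the Euclidean distance of log2(pileup + 1) over the 4 lists, among genes more than 50 kb away. Nearest to NEAT1 were DGKE, a diacylglycerol kinase, and C17orf67, which share their peaks, at a distance of 0.33. Then came ADCY7, an adenylate cyclase, at 0.40, and AHSA1, an HSP90 cochaperone, was at 0.46. Nearest to MALAT1 were PDXK, a pyridoxal kinase, at 0.22, then GPBP1 and the lncRNA ENSG00000289152, which share peaks, at 0.31. LINC01331 and LINC01333 were next, also with shared peaks, at 0.35. NEAT1 and MALAT1 were 1.02 apart. Among all genes, MALAT1 ranked 67 in likeness to NEAT1, and NEAT1 ranked 68 in likeness to MALAT1. The genes named above were picked as the nearest, so their smaller distances follow from that choice.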

How the data were processed

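CUT&RUN peak lists of OVCAR8 cells were used: 2 HSF1 and 2 MYC lists, each called with MACS2 2.2.9.1 against 1 IgG library per the file headers. Reads had been trimmed and mapped with Bowtie 2 (GRCh38) by the authors, who called peaks on paired-end fragments for each library at a p-value threshold of 1e-04 (HSF1) or 1e-10 (MYC). The deposited lists give each peak's position, its summit, the pileup signal (fragment coverage at the summit), the −log10 p-value, the fold enrichment as a ratio over local background, and the −log10 q-value, which was not used.

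The local background was recovered from pileup and fold with a pseudocount of 1. A Poisson p recomputed from it differed from the deposited −log10 p-value by at most 0.000829. All pileups were whole numbers of fragments. Gene windows (5 kb upstream to gene end) came from GENCODE 44, and an overlap needed 1 bp. A gene was counted for a factor when both lists held a peak. Motifs were counted within 100 bp of summits, and were also searched over whole peaks, from which the printed heat shock elements and E-box were taken. Python 3.11.15 with pandas 2.3.3, pysam 0.24.0 and matplotlib 3.10.9 was used, and the overlap and motif steps were tested on simulated data. The members and lists were chosen with earlier results of these data known, so no test was made. Named genes were the 6 members, the other paraspeckle genes with overlapping peaks in both replicate numbers, the 5 of these genes with the highest mean MYC pileup, and the 5 genes most like NEAT1 and like MALAT1, of which 1 is not reported here. Genes whose windows shared the peaks of a member were named as neighbours, and these also included LINC02736 at MALAT1 and ITGB1BP2 at NONO.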

Additional observations from a re-analysis of the deposited data

How the results depend on the processing

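Of 70 alternatives for 10 counts, 53 left the count within 1.5 times the value reported and 17 moved it. Members with HSF1 in both lists numbered 2, and 4 with a peak in either list. Members with MYC in both lists fell from 5 to 3 at a MYC threshold of 1e-20, where SFPQ and NONO were lost, and those with MYC at the start site from 4 to 2. At an HSF1 threshold of 1e-10, the start-site HSF1 count was 1 (NEAT1), and among the other paraspeckle genes the HSF1 count and the overlap count were each 1 (EWSR1). With nothing upstream of the gene, 1 member kept an overlap (MALAT1), and 3 other paraspeckle genes kept HSF1. HSF1 in either list gave 10 of these genes, and requiring the peaks of both lists to overlap each other, an alternative chosen after seeing the data, gave 3. With summits required within 200 bp, 1 of them had an overlap (HNRNPK). A heat shock element of 2 units gave 1 member (MALAT1), where it lay near the summit of a different peak in each list. An E-box gave 1 (NEAT1) when the whole peak was searched or when CACGCG and CATGTG were allowed.

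Without 1 replicate at a time, the members with HSF1 ranged from 2 to 4, the highest without HSF1 replicate 2, and the other paraspeckle genes with HSF1 from 5 to 10 and with an overlap from 4 to 9, the highest without HSF1 replicate 1. Members with an overlap stayed at 2. Of the highest pileups of the members, 13 were kept and 3 removed by the stricter thresholds, the latter being those of SFPQ in HSF1 replicate 1 and MYC replicate 1 and of NONO in MYC replicate 2. No paired analysis was possible because the results are counts of peaks and come from no test.

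A peak missing from a list says only that none was called at that depth and threshold, which was stricter for MYC than for HSF1. All lists share 1 IgG library, so local background moves with it. With 2 lists per factor no error was estimated for a pileup.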

Other observations

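The stretch of 47099 bp between the end of NEAT1 and the window of MALAT1 was not empty. It held 8 and 6 HSF1 summits and 8 and 7 MYC summits, with highest pileups of 28 and 31 for HSF1 and 44 and 36 for MYC. Each of these was below the highest peak of NEAT1 and of MALAT1 for the same list, apart from MYC replicate 2, where MALAT1 was at 32. The body of NEAT1, at 22767 bp, was the stretch of this locus without a summit in any list, and the nearest peaks past its end began between 7486 and 9808 bp downstream.

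Peaks at the members differed widely in base composition. Within 100 bp of the summit, the share of G and C ranged from 34.3% to 77.6% over the HSF1 peaks of replicate 1 and from 36.3% to 74.1% in replicate 2. For MYC it ranged from 41.8% to 74.1% and from 35.8% to 76.6%. The lowest values were those of the peaks about 1.1 kb inside MALAT1, in both HSF1 lists and in MYC replicate 2, and the highest were at SFPQ exon 1 in HSF1 replicate 1 and MYC replicate 2. The median share over the member peaks was 55.22% and 52.99% for HSF1, against 48.26% and 49.25% over all peaks of these lists. For MYC the medians were 56.72% and 56.97%, against 57.71% and 63.18%. The range over all peaks is not given here.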
